A study of Homo sapiens with 12 samples.

Results

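The 10 genes described here are switched on when the human embryo first activates its genome, and they were set against maps of lamina-associated domains (LADs), the parts of the genome in contact with the nuclear lamina, in human embryonic stem cells of the H9 line. They were chosen by name, as DUX4, DUXA, DUXB, ZSCAN4, LEUTX, TPRX1, TPRX2, ARGFX, DPRX and KDM4E, out of 19974 protein-coding genes on the 22 autosomes and X. All 10 were found in the RefSeq gene table. Naive H9 cells were kept in RSeT medium and primed H9 cells in mTeSR medium, with no treatment in either. For each state the labels describe 3 libraries in which an antibody against lamin B1 (LMNB1) brought the bacterial Dam methylase to the lamina (pA-DamID) and 3 libraries labelled Dam-only, a control for how open the DNA is. The files hold 1 list of LADs for naive cells and 1 for primed cells, as runs of 10 kb windows with no score, read number or replicate. Differences between the states are therefore differences between 2 lists, they could not be set against replicate error, and no test was run. The naive list holds 9178 LADs covering 1438.47 Mb and the primed list 5671 LADs covering 1319.48 Mb. The naive list is thus larger and in more pieces genome-wide. The depth of each window is unknown, and a window that short reads cannot map to looks the same as a window away from the lamina. The files hold no expression values, so neither the state of the cells nor the activity of these genes could be checked, and all cells come from a single line.

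Dam marks the adenine of GATC sites near the lamina, and DNA at the lamina is in most cell types poor in active genes. The genes of embryonic genome activation are silent in most adult tissues and come on in a short burst around the 8-cell stage. DUX4 is an early activator of this burst. DUXA, DUXB, LEUTX, TPRX1, TPRX2, ARGFX and DPRX encode other transcription factors of the paired-like (PRD-like) homeobox class, and LEUTX, TPRX1, TPRX2, ARGFX and DPRX are thought to derive from copies of CRX, a photoreceptor homeobox gene. ZSCAN4 and KDM4E encode no homeobox protein. ZSCAN4 carries a SCAN domain and zinc fingers and is known for its part in telomere maintenance in mouse embryonic stem cells, and KDM4E belongs to a family of histone lysine demethylases. The label of the set, which speaks of homeobox genes, thus fits 8 of the 10.

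One gene lay in LADs of each list, and it was a different gene in each. Genes counted as in a LAD had 50% or more of the gene body covered. KDM4E was covered at 100% in the naive list and 0% in the primed list. DUXB was covered at 0% in the naive list and 100% in the primed list. The other 8 genes were covered at 0% in both. Among all protein-coding genes 18.9% were in LADs of the naive list and 17.3% in LADs of the primed list, 15.4% in both and 79.3% in neither, so 8 of 10 genes in neither list is close to the share of genes at large. Naive LADs only held 3.44% of all protein-coding genes and primed LADs only held 1.89%, against 1 of the 10 genes each.

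Position along the genome split the set. DUXA, ZSCAN4, LEUTX, TPRX1, TPRX2 and DPRX lie on chromosome 19, whose protein-coding genes are almost never in LADs (0.0689% of 1451 genes in the naive list and 0.138% in the primed list). The other 4, KDM4E, DUXB, DUX4 and ARGFX, have LADs of at least 1 list within 160 kb. In the 1 Mb centred on the gene, the LAD share was above 0 in both lists for these 4 genes. In the same window, 53.4% of all protein-coding genes had no LAD in the naive list and 59.4% had none in the primed list.

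**Figure D1:**
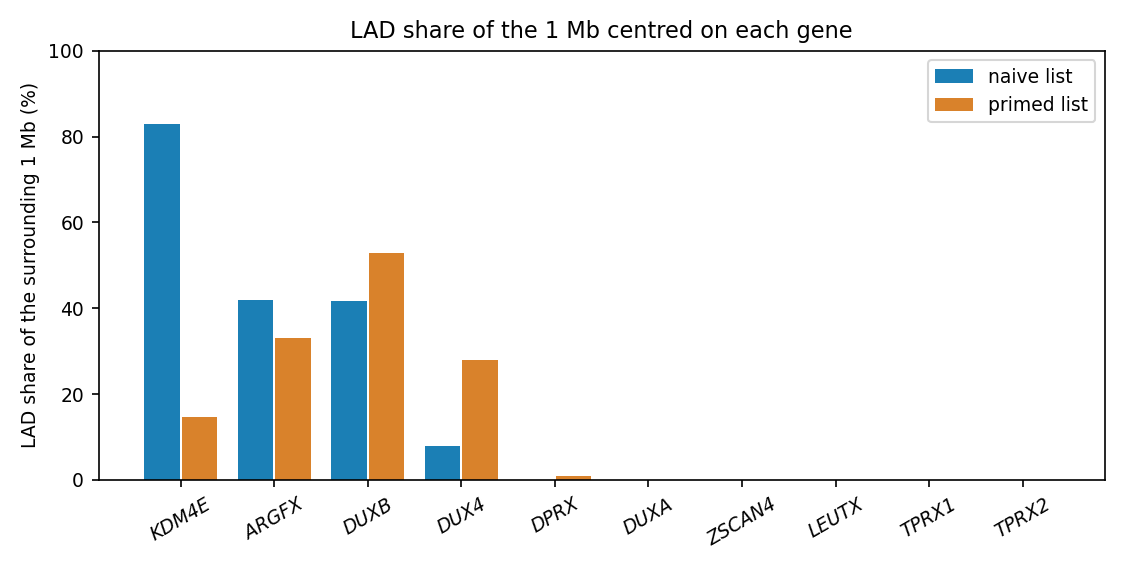
LAD share of the 1 Mb centred on each gene's midpoint, in percent, for the naive list (left bar of a pair) and the primed list (right bar). KDM4E stands at 83.0% in naive and 14.6% in primed, DUX4 at 8% in naive and 28% in primed, and the 6 genes of chromosome 19 at 0% or, for DPRX in the primed list, 1%. There are no error bars because each list stands for a whole state.

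The 250 bases just upstream of each start site are a small part of a 10 kb window and do not describe the whole of it. RefSeq sequence of the start region was at hand for 6 of the 10 genes (GRCh38.p14, 7 start sites, LEUTX with 2 of them), and the 250 bases before the start were searched for TAATCC on both strands (GGATTA on the other), the site that CRX and OTX homeobox proteins are known to bind. DUXB, LEUTX (before the second of its starts), TPRX2 and ZSCAN4 each carry it, and DUXA and DUX4 do not in this window. It occurs in 5.62% of the 35116 upstream regions listed, a share per region, whereas LEUTX was searched in 2 regions. TAATTA (found in DUXB only), TATAAA (in DUXB, DUXA and ZSCAN4) and GGGCGG (in DUXB, DUXA, TPRX2 and DUX4) were also counted. They occur in 4.35%, 10.7% and 42.6% of all upstream regions. The sequences of these 6 genes are shown because they were the ones at hand, for LEUTX at the second start only. KDM4E, the other gene that differed between the lists, is not among them. Of the windows that hold the sequences, only that of DUXB differed in LAD state. The sequences are written 5′ to 3′ on the gene's strand with TAATCC or GGATTA in capitals.
DUXB, chr16:75701462-75701711, minus strand: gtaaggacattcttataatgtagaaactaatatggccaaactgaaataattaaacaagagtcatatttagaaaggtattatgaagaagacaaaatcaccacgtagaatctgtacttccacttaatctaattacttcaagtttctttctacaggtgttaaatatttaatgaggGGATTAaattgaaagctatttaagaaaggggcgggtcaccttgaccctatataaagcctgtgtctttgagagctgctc
LEUTX, chr19:39778604-39778853, plus strand: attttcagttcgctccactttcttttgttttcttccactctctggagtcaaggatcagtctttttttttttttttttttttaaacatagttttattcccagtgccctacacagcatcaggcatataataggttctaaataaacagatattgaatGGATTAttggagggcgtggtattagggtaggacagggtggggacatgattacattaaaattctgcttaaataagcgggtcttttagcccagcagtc
TPRX2, chr19:47858985-47859234, plus strand: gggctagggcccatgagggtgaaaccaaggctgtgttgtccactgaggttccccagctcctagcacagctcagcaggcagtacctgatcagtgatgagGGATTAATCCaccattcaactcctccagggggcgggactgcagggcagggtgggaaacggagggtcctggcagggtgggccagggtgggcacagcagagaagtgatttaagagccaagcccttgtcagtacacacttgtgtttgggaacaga
ZSCAN4, chr19:57668685-57668934, plus strand: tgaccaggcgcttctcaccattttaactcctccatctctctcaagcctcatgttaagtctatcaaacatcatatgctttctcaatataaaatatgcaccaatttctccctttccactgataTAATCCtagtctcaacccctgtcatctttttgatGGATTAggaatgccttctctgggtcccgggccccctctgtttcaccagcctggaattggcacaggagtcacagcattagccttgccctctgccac
DUXA, chr19:57167486-57167735, minus strand: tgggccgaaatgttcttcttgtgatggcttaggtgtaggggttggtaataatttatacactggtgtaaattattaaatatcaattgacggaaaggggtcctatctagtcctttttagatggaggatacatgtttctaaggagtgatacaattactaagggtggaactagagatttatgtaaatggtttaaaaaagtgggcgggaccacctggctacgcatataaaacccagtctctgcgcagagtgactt
DUX4, chr4:190173524-190173773, plus strand: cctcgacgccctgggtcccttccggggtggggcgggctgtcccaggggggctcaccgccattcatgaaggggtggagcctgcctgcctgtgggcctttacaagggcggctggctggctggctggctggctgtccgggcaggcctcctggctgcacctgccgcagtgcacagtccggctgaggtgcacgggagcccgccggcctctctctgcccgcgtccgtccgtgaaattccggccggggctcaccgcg
In TPRX2 a match on either strand overlaps the other in 1 run, and in ZSCAN4 there are 2 separate ones. The DUXB region is the poorest in G and C of the 6 shown, at 33.6%, and the DUX4 region the richest at 72.8%, with a median of 58% over all upstream regions in the table. GATC, the site that Dam marks, occurs once in the LEUTX and TPRX2 regions shown and not in the other 4, and 35.8% of all upstream regions hold it. The window of the DUXB start (chromosome 16, 75700001 to 75710000) lay outside LADs in the naive list and inside in the primed list. The windows of the other 5 genes' starts lay outside in both.

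KDM4E stood in a block of chromosome 11 that was mostly LAD in the naive list and mostly free of LADs in the primed list. The gene (chromosome 11, 95025258 to 95027596, 2.34 kb) lay in a naive LAD of 150 kb from 95000001 to 95150000, with its midpoint 26.4 kb from the nearer edge. In the primed list it lay in a gap of 0.75 Mb between LADs (94310001 to 95060000), 32.4 kb from the nearest LAD, which is a single 10 kb window. Without single-window LADs the nearest primed LAD was 382 kb away. The difference thus reached far beyond the gene. Of the 100 windows within 500 kb of its midpoint, 69 were in naive LADs only, 14 in both, 17 in neither and 0 in primed LADs only. The LAD share of that 1 Mb was 83.0% in the naive list and 14.6% in the primed list. A naive surplus of 68.4 points or more was seen at 106 of 19974 protein-coding genes (0.531%), KDM4E and some of its neighbours among them. On the side of lower coordinates the primed share within 500 kb was 0%, against 76% in the naive list.

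The neighbours of KDM4E shared its pattern. KDM4F, the next coding gene at higher coordinates and of the same family, was covered at 100% in the naive list and 0% in the primed list, and so was CWC15, a splicing factor gene. By covered share in the 2 lists (within 10 points in both), these were the nearest coding genes with the pattern of KDM4E, and chromosome 11 had 25 such genes among 1301. KDM4D, the family member between CWC15 and KDM4E, was covered at 24.4% in the naive list and 0% in the primed list. The run of windows in naive LADs only that holds KDM4E spans 60 kb (95000001 to 95060000) and contains 7 genes, of which KDM4E and KDM4F are protein-coding. The others are 4 pseudogenes (LOC100420801, LOC100420802, SRSF8BP and LOC100420803) and the lncRNA LOC107984375. Of the 10 other coding genes that reach into the 1 Mb window, 9 were in LADs of the naive list and 1 in LADs of the primed list. Named after their values were seen, these include AMOTL1, which encodes an angiomotin-like junction protein (88.3% in naive, 0% in primed), PIWIL4, a piRNA pathway gene (78.9% in naive, 0% in primed), and SRSF8, a splicing factor gene covered in both lists (100% in naive, 71.8% in primed).

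**Figure D2:**
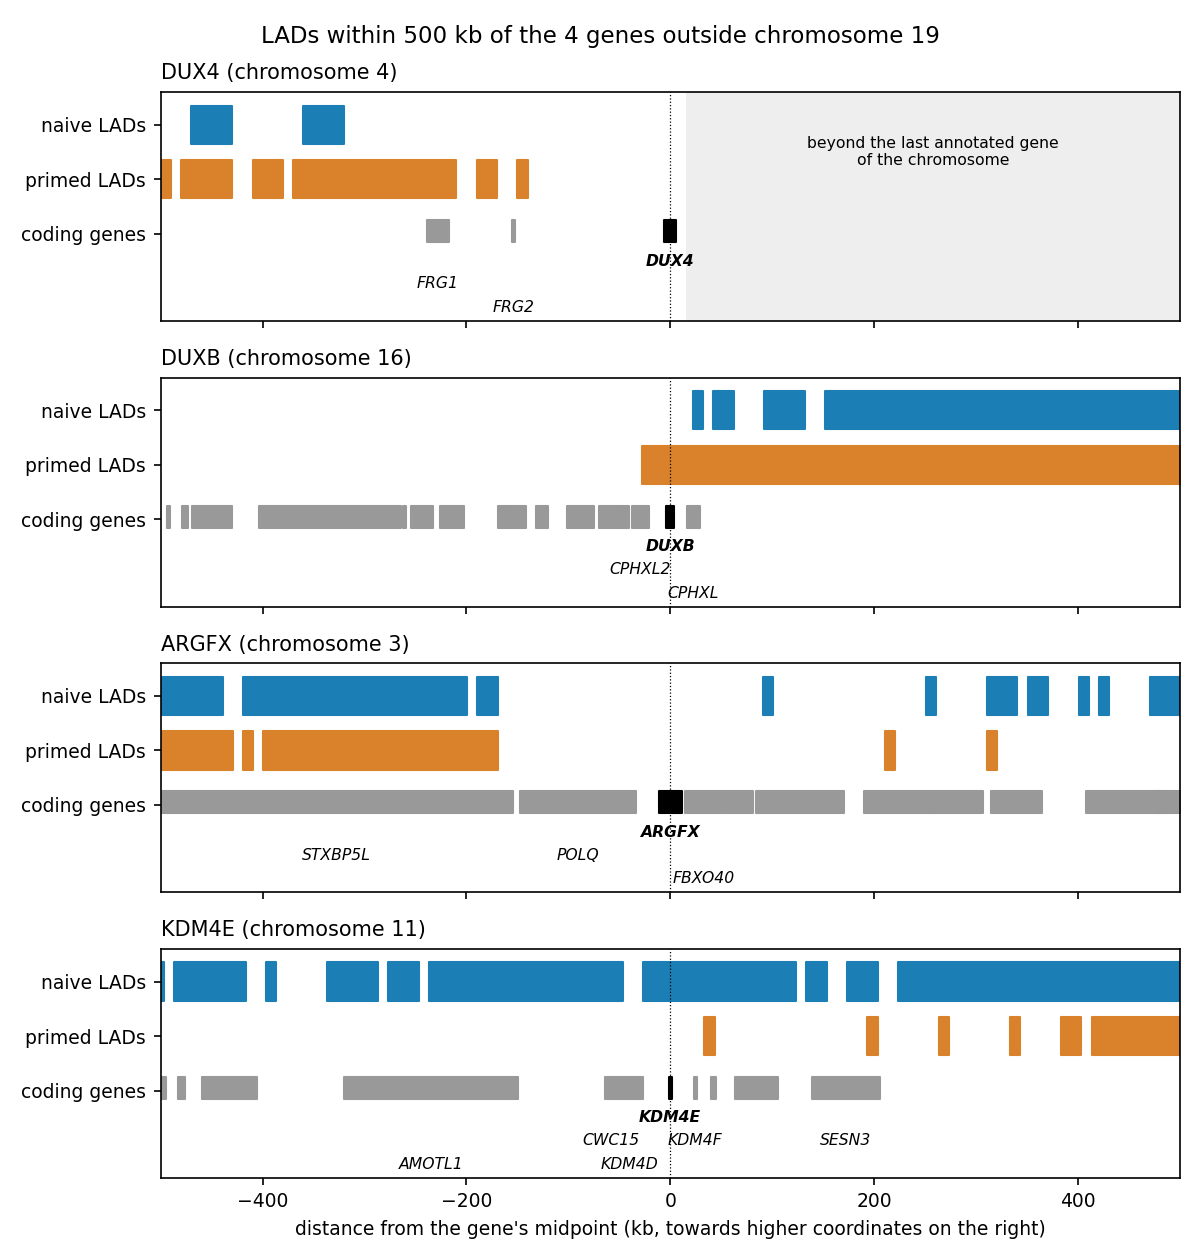
LADs of the naive list (blue, upper row) and the primed list (orange, middle row) and protein-coding genes (lower row, the gene named in the panel in black) within 500 kb of the midpoints of DUX4, DUXB, ARGFX and KDM4E. The horizontal axis is the distance from the gene's midpoint in kb. Around KDM4E 69 of 100 windows were in naive LADs only, whereas around DUX4 20 windows and around DUXB 11 were in primed LADs only.

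DUXB lay at a LAD border that sat farther out in the primed list. The gene (chromosome 16, 75693893 to 75701461, 7.57 kb) was inside a primed LAD of 1550 kb (75670001 to 77220000), with its midpoint 27.7 kb from the border. In the naive list the corresponding LAD of 2090 kb started at 75850001, preceded by 3 short LADs of 10, 20 and 40 kb, and the nearest of these was 18.5 kb from the gene. The naive list had nothing for 1464 kb on the other side. Of 100 windows within 500 kb, 11 were in primed LADs only, 41 in both, 48 in neither and 0 in naive LADs only. The difference was therefore narrow. Within 50 kb on either side of the midpoint the LAD share was 17.7% in the naive list and 77.7% in the primed list, and within 1000 kb it was 45.9% in the naive list and 51.4% in the primed list. The primed share of 1 Mb exceeded the naive share by at least 11 points at 651 protein-coding genes (3.26%), whatever the arrangement of their LADs. That surplus was 5 points (naive minus primed, -5) when LADs under 50 kb or under 100 kb apart were joined, and 5.5 points (-5.5) in the 2 Mb window.

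DUXB is flanked by 2 other homeobox genes. CPHXL2, 16.9 kb away at lower coordinates, was covered at 0% in the naive list and 41.8% in the primed list, so the primed border ran through it. CPHXL, 12.7 kb away at higher coordinates, was covered at 52.5% in the naive list and 100% in the primed list. The 50 kb run in primed LADs only (75670001 to 75720000) contains DUXB and the pseudogenes RN7SL520P and ATP5PBP7. Under the same rule of likeness, 0 other coding genes of chromosome 16 had the pattern of DUXB. TERF2IP, a telomere protein gene beyond CPHXL2, was at 0% in both lists, and 14 of the 15 other coding genes of the 1 Mb window were under the 50% call in both lists, CPHXL2 among them. The exception was CPHXL.

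DUX4 was outside LADs in both lists, but the last LAD of chromosome 4 ended closer to it in the primed list. DUX4 (chromosome 4, 190173774 to 190185911) encodes its protein from the D4Z4 repeats next to the telomere, and its release from silencing in muscle is the known cause of facioscapulohumeral dystrophy. The last naive LAD ended at 189860000, which was 314 kb from the gene, and the last primed LAD ended at 190040000, 134 kb away. The ends differ by 180 kb. The last primed LAD was a single window, and without LADs under 50 kb the distances were 504 kb in the naive list and 204 kb in the primed list. Of the 100 windows around the gene 20 were in primed LADs only, 8 in both and 0 in naive LADs only. FRG2, the nearest coding gene, lay outside LADs in both lists, while FRG1, another gene of this dystrophy region, was covered at 0% in the naive list and 100% in the primed list. FRG1 was named after its values were seen.

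The 1 Mb window of DUX4 runs past the annotated end of the chromosome, which lowers its share in both lists. With the whole window as the base it was 8% in the naive list and 28% in the primed list. The last annotated gene ends at 190196239, and with the window cut there the shares were 15.5% in the naive list and 54.2% in the primed list. A primed surplus of 20 points or more, the value of the uncut window, was seen at 301 protein-coding genes (1.51%). Only 51.6% of that window lies within the annotated span, so the rank is not a like comparison with genes whose windows are whole. Between the last primed LAD and DUX4 lie 8 DUX4-like pseudogenes in a repeat array with a median step of 3294 bases, and the copies are near-identical, so a lack of LADs at DUX4 and in this array cannot be told apart from a lack of mappable reads.

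ARGFX stood between LADs in both lists, and the sign of its difference in 1 Mb share depended on the setting. The gene (chromosome 3, 121567949 to 121590622) lay in a gap of 0.26 Mb in the naive list and 0.38 Mb in the primed list. Both gaps began at the same border, 158 kb from the gene at lower coordinates, where the LADs over STXBP5L, a gene of the tomosyn family, end. On the other side the nearest LAD was 79.4 kb away in the naive list, a single window, and 199 kb away in the primed list. The 1 Mb share was 42% in the naive list and 33.1% in the primed list, a difference that 12.9% of all protein-coding genes reached or passed in that direction. The difference, 8.93 points (naive minus primed), was 18.9 and 14.9 points when LADs under 50 kb and under 100 kb apart were joined and 15.0 points in a window of 2 Mb. It was -2 points without LADs under 50 kb and in a window of 500 kb. POLQ, the gene of DNA polymerase theta, and FBXO40, its coding neighbours, were at 0% in both.

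**Figure D3:**
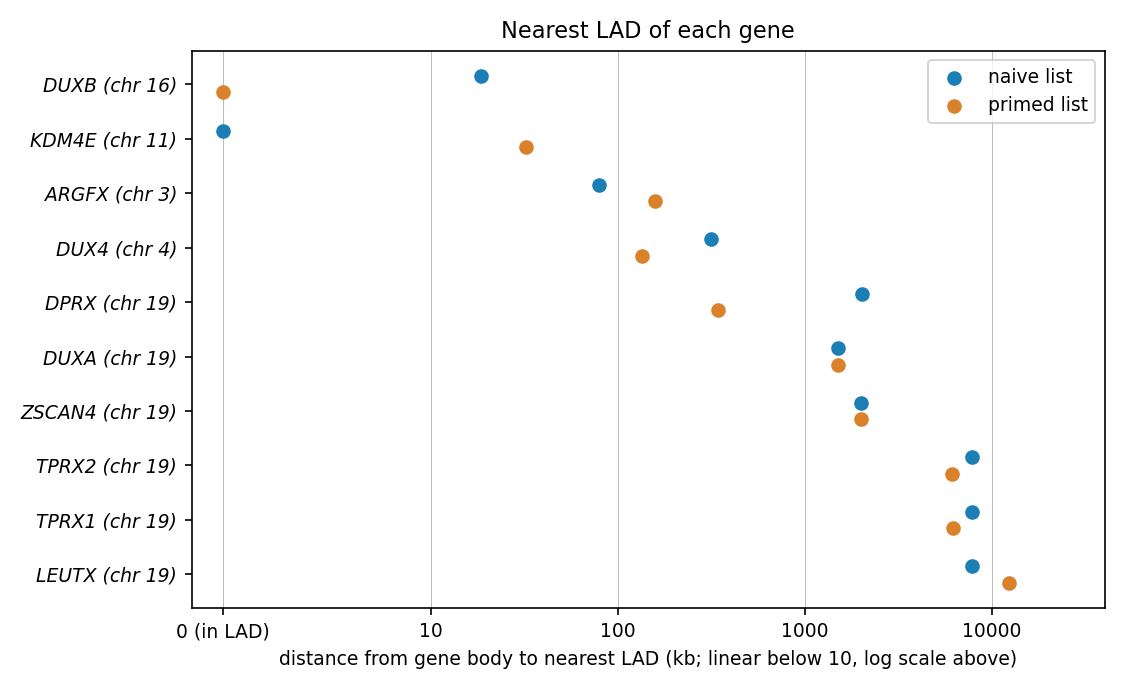
Distance in kb from each gene body to its nearest LAD in the naive list (blue) and the primed list (orange), with 0 for a gene that overlaps a LAD. The axis is linear below 10 kb and logarithmic above. KDM4E is at 0 in the naive list and at 32.4 kb in the primed list, DUXB at 18.5 kb in the naive list and 0 in the primed list, and the genes of chromosome 19 lie between 343 kb and 12266 kb from a LAD.

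The 6 genes of chromosome 19 were far from LADs in both lists. The naive list calls 5 windows on the whole chromosome and the primed list 9, all of them single 10 kb windows, with 2 windows in both. Each distance on this chromosome thus runs to a single window, and without such windows no LAD is left there in either list. Why so few windows were called was not tested. LEUTX (39776453 to 39786291) was 7806 kb from a LAD in the naive list and 12266 kb in the primed list. TPRX1 (47801232 to 47819051) was 7831 kb away in the naive list and 6161 kb in the primed list. TPRX2 (47859235 to 47861721) was 7788 kb away in the naive list and 6118 kb in the primed list. These 2 genes flank CRX, which was also at 0% in both lists. LEUTX, TPRX1, TPRX2 and DPRX shared a LAD-free stretch of 23.68 Mb in the naive list and of 26.47 Mb in the primed list.

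Of the remaining 3 genes of chromosome 19, DPRX alone had a LAD within 500 kb of its midpoint, in the primed list. DPRX (53601114 to 53637014) was 2013 kb from a LAD in the naive list and 343 kb in the primed list, because of a single primed window from 53980001 to 53990000. DUXA (57154021 to 57167485) was 1494 kb and ZSCAN4 (57651476 to 57679152) was 1991 kb from the same single window, 55650001 to 55660000, in both lists. No LAD was called between that window and the end of the chromosome in either list. The nearest coding neighbours of these genes were likewise at 0% in both. They are mostly zinc finger genes, ZIM3 and ZNF264 beside DUXA, ZNF211 and ZNF551 beside ZSCAN4, and ZNF331 and NLRP12, an innate immune gene, beside DPRX. CLC and DYRK1B flank LEUTX, SELENOW lies next to TPRX1 and SULT2A1 next to TPRX2.

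**Figure D4:**
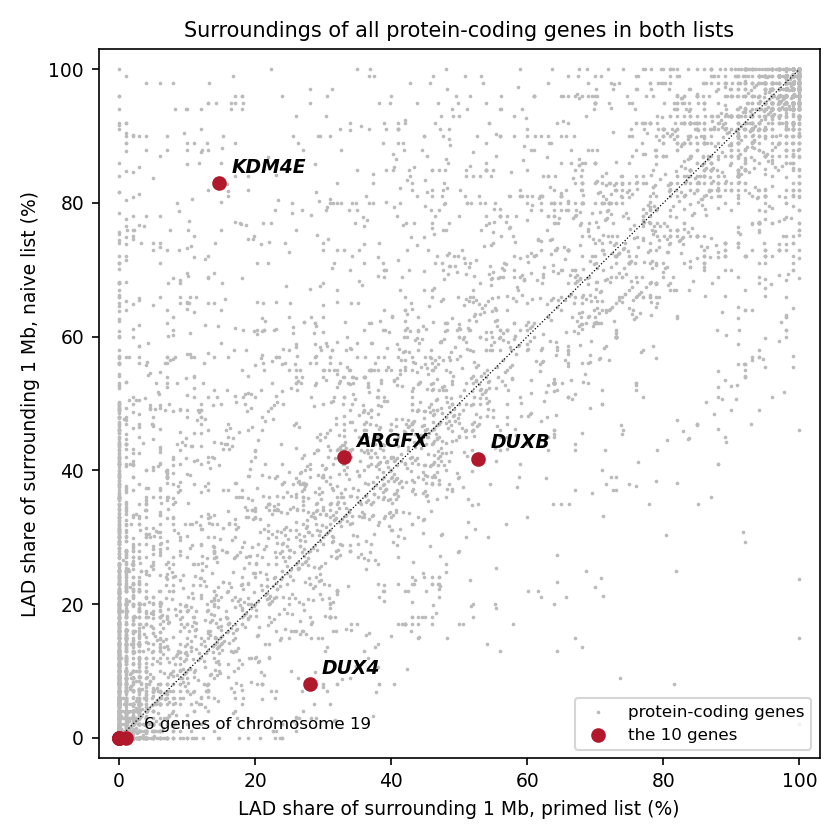
LAD share of the surrounding 1 Mb in the naive list (vertical axis, percent) against the primed list (horizontal axis, percent) for 19974 protein-coding genes (grey) and the 10 genes (red), with equal shares on the dotted line. KDM4E lies far above the line at 83.0% in naive and 14.6% in primed, DUX4 and DUXB below it, and the 6 genes of chromosome 19 at or near 0 in both.

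Copies of these genes are many. A smaller share of their pseudogenes than of all pseudogenes lay in LADs of each list, mainly through the DUX4-like copies, many of them in repeat arrays where calls are uncertain. The gene table holds 80 further genes and pseudogenes named after these families, 75 of them on the chromosomes analysed. Of the 69 pseudogenes among these, 9 were in LADs of the naive list and 7 in LADs of the primed list, against 32.5% (naive) and 29.5% (primed) of all 16664 pseudogenes. The same 7 were in both, and 27.1% of all pseudogenes were in both. Of the 46 DUX4-like copies, 2 were in LADs of each list, and these were the same 2. Of the 23 pseudogenes related to DUXA, ARGFX, DPRX and TPRX genes, 7 were in LADs of the naive list and 5 in LADs of the primed list. These shares are closer to those of all pseudogenes than the shares of the DUX4-like copies are. The 2 that differed were DUXAP4 on chromosome 10 and DUXAP6 on chromosome 15. Each was covered at 100% in the naive list and 0% in the primed list. Of the 69 pseudogenes of these families, 2 were thus in naive LADs only and 0 in primed LADs only. Among all 16664 pseudogenes, 899 were in naive LADs only and 411 in primed LADs only.

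Of the 46 DUX4-like copies, 23 stand near the ends of chromosomes 4 and 10, and the other 23 are spread over 8 chromosomes. On chromosome 4 there are 9 copies between 190021169 and 190092289, at 161 to 231 kb from a LAD in the naive list and 7.34 to 51.0 kb in the primed list. On chromosome 10 there are 14 copies between 133664429 and 133761135, at 2064 to 2160 kb from a LAD in the naive list and 15504 to 15600 kb in the primed list. None of these 23 copies lay in a LAD of either list. DUX4L9 stands 45.3 kb from the other 8 on chromosome 4, and the copies on chromosome 10 form 2 clusters of 7 that are 55.4 kb apart. Within clusters the copies step along at a median of 3294 bases on chromosome 4 and 3299 bases on chromosome 10, so several units fall into each 10 kb window. How reads that map to several copies were handled is not stated in the sources used here, and calls in these arrays are uncertain for that reason.

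Related genes were counted beside all protein-coding genes, of which 18.9% were in LADs of the naive list, 17.3% in LADs of the primed list and 15.4% in both. Of 17 other paired-type homeobox genes, among them CRX, OTX2 and GSC, 1 lay in LADs in each list, and it was the oocyte gene NOBOX, covered at 100% in both. Of 24 further genes of the same embryonic programme, 5 were in LADs of the naive list and 6 in LADs of the primed list, with 5 in both. Those in both include H3Y1 and H3Y2, primate-specific histone genes on chromosome 5, and RFPL4B on chromosome 6, each covered at 100% in both lists. The gene that differed was KHDC1, at 41.5% in the naive list and 100% in the primed list. Of the 6 members of the KDM4 family other than KDM4E in the table, KDM4F and KDM4C were in naive LADs, and KDM4C was in primed LADs too (62.8% in naive, 76.0% in primed), whereas KDM4A and KDM4B were at 0% in both. This family count includes the antisense gene KDM4A-AS1, also at 0% in both.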

How the data were processed

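LADs were mapped by pA-DamID in naive and primed H9 cells, with 3 LMNB1 and 3 Dam-only libraries per state. Per the submitters' processing notes, BWA, SAMtools 1.10 and SICER were used with hg38. Step order, thresholds and the pooling of libraries are not stated there. The deposited files hold LAD starts and ends, all multiples of 10 kb, with no score. The labels name a final LAD list per state and the deposited lists are marked simple, and what sets these apart is not stated. Gene positions and start-region sequences came from RefSeq tables of GRCh38.p14, the primary assembly of hg38. Coordinates are 1-based. From the intervals, covered shares of gene bodies, distances from gene bodies to LADs and LAD shares of 500 kb on either side of the midpoint were computed (Python 3.11.15, numpy 2.4.6, pandas 2.3.3, matplotlib 3.10.9), with the functions tested on simulated data. Chromosome Y was left out. With 1 list per state there was no test. The 10 genes and both lists of related genes were chosen with earlier results of these data known. By rule, the text names all 10 genes, their nearest coding neighbours, genes wholly inside a run of windows in 1 state only with them, copies by symbol, and up to 4 differing list genes per direction and 3 in both lists. Alternatives joined or left out LADs, or changed the call, gene interval or window.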

Additional observations from a re-analysis of the deposited data

How the results depend on the processing

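KDM4E stayed in naive LADs only and DUXB in primed LADs only when LADs under 50 kb or under 100 kb apart were joined. Joining could not have changed this. KDM4E lay in a primed gap of 0.75 Mb and DUXB in a naive gap of 1.49 Mb. The same calls held with 10 kb added on either side of the gene. That could not change them either, because the nearest LAD of the other list was 32.4 kb from KDM4E and 18.5 kb from DUXB. Other alternatives also gave the same calls and could not have changed them. Leaving out LADs under 50 kb or of a single 10 kb window spares the LADs of KDM4E (150 kb) and DUXB (1550 kb). With any covered base or at least 90% of the body required nothing could move, because all 10 genes were covered at 0% or 100%. Leaving out DUX4, an alternative chosen after seeing the data, could not matter, because DUX4 was at 0% in both lists. By start site instead of body, 6 genes had a start in the table, KDM4E was not among them, and 0 lay in naive LADs and 0 in naive LADs only. With all genes of the table as background in place of coding genes, the naive share was 28.4%. The order of ARGFX's distances turned without LADs under 50 kb, to 188 kb in the naive list and 158 kb in the primed list, a difference of 30 kb. KDM4E's surplus in LAD share was 80 points in a window of 500 kb and 48 points in 2 Mb, and DUXB's primed surplus ranged between 5 points (naive minus primed, -5, LADs joined) and 22 points (-22, 500 kb). DUX4's primed surplus was 11.5 points in 2 Mb (-11.5). Of 482 values under alternatives, 441 stayed within 10 points, 10 kb or 1.5 times the count and 41 moved farther. Many of the 441 could not move, so the tally is no measure of robustness. Among them are the covered shares of all 10 genes and the 1 Mb shares of DUXA, ZSCAN4, LEUTX, TPRX1 and TPRX2, which have no LAD in any window used. The 482 leave out the distances of the 6 genes of chromosome 19 for the settings without LADs under 50 kb or of a single window. Those settings leave no LAD on that chromosome, so no distance exists. The sign of 3 differences changed, all of them of ARGFX, the distance above and the 1 Mb share, at -2 points without LADs under 50 kb and in 500 kb. The cause of these shifts beyond the windows and LADs included was not tested. The window cut at the last annotated gene was added after seeing the data. No paired analysis was possible because there is 1 list per state and it carries no replicate. Depth is unknown, and a 10 kb window is the smallest difference the lists can show.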
